A study of Homo sapiens with 24 samples.

Results

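Luteolin, a flavone found in many plants, was given to ES2 cells, an established line of human ovarian cancer, and the RNA of the treated cells was set against that of cells given DMSO, the solvent. The comparison rests on 6 of the 24 libraries of the series, 3 with luteolin and 3 with DMSO, chosen by their titles. All libraries of the series come from wild-type cancer cells of this line or of A2780, a second ovarian cancer line that carries the same treatments and is used here only to test where ES2 differed. The other libraries of each line received an siRNA against the kinase VRK1 or a control siRNA. Neither the dose of luteolin nor the time of exposure nor the culture conditions could be read from the labels. The cell-line label counts upward from library to library, so the titles, which name ES2 throughout, were followed. Nothing states whether the 3 libraries of a treatment were separate cultures, so each p-value speaks for a spread among libraries, which may be technical. For luteolin against DMSO that spread was estimated from all 12 ES2 libraries, those with siRNA included.

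Cells that lack an amino acid, or whose endoplasmic reticulum (ER) holds unfolded proteins, phosphorylate the initiation factor eIF2 through one of several kinases. General protein synthesis slows, while the mRNA of the transcription factor ATF4 is translated more. ATF4 pairs with C/EBP proteins and switches on genes that make amino acids, carry them into the cell and load them onto tRNA, together with targets such as TRIB3 and CHAC1. The same programme includes DDIT4 and SESN2, which restrain mTORC1, the kinase complex that drives growth when amino acids are plentiful. Luteolin is known as an inhibitor of several protein kinases, and VRK1 has been described among its targets.

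Levels are given as TPM, a transcript's share of the library scaled to a fixed total of 1000000, summed over the transcripts of each gene symbol. TPM keep no record of sequencing depth, so the depth of each library is unknown and no interval for counting error can be given. The 6 libraries each held 11865 to 12190 genes at 1 TPM or more. Across genes, which are not independent replicates, 2 libraries of the same treatment had a Pearson correlation of 0.990 to 0.993 in log2 level, and a luteolin with a DMSO library 0.967 to 0.974. No 2 libraries held identical values. KRT7, a keratin of simple epithelia, stood at 454, 470.3 and 501 TPM with luteolin and 486, 484 and 489.7 TPM with DMSO, while EPCAM and CDH1, further markers of epithelium or ovarian carcinoma, were below 1 TPM in every library and MUC16, MSLN, FOLR1 and SOX17 were listed at 0. On the same list KRT18 fell to 203, 197 and 220.3 TPM with luteolin, against 433, 398 and 425 TPM with DMSO (−1.02 ± 0.04), KRT8 fell (−0.42 ± 0.06) and ANXA4 rose (0.91 ± 0.09). Of 17 such markers, 10 stayed below 1 TPM in all 6 libraries, and their summed level ranged from 759 to 833 TPM with luteolin and from 997 to 1031 TPM with DMSO. Of 11 leukocyte markers, 10 stayed below 1 TPM, and the list summed to 57.9 to 65.3 TPM with luteolin and 56.8 to 67.2 TPM with DMSO, nearly all of it CD68.

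Luteolin raised 2826 of 12507 genes tested (22.6%) and lowered 3228 (25.8%), where a call is a Benjamini-Hochberg adjusted p under 0.05 in a limma fit of log2(TPM + 1). That fit took its spread from the 12 ES2 libraries. With only the 6 luteolin and DMSO libraries in the fit, 2578 genes were higher and 2912 lower. Counts of called members on every list below are to be read beside 22.6% higher and 25.8% lower. The median change over all genes tested was −0.003 on the log2 scale of the fit. The rises reached further than the falls: 306 genes were called and higher by at least 2-fold (2.45%), against 147 lower by at least 2-fold (1.18%). These 2-fold counts depend on the pseudocount, as given under the processing. Values after ± are standard errors (SE) of the fit unless SD is named, and every fold change is on the log2(TPM + 1) scale, which shrinks the change of genes at low TPM. In bulk RNA, fewer cells of a type and less RNA per cell cannot be told apart.

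**Figure D1:**
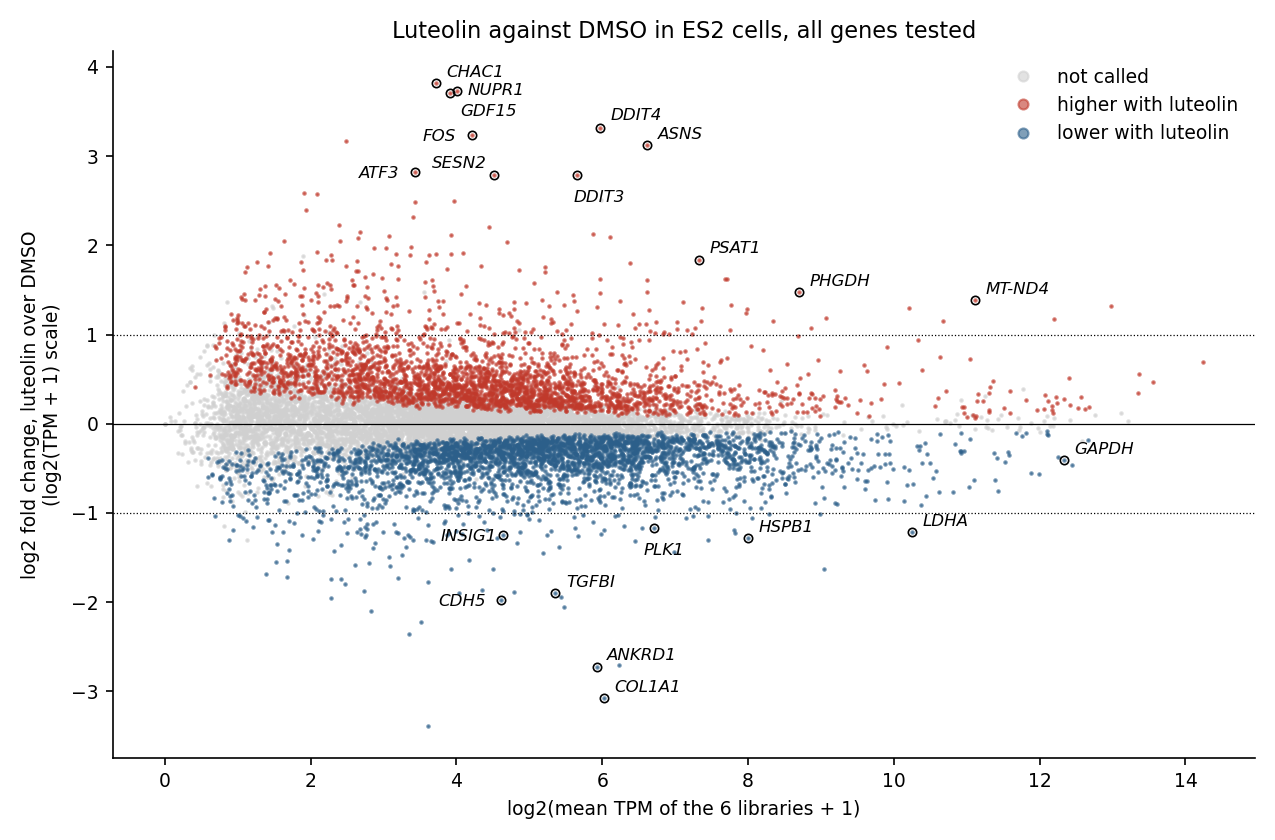
Each point is 1 of the 12507 genes tested, placed by its mean level over the 6 libraries (horizontal, log2(TPM + 1)) and its log2 fold change, luteolin over DMSO (vertical); red and blue points were called higher and lower, and dotted lines mark a 2-fold change. CHAC1, NUPR1, GDF15, DDIT4 and ASNS lie at log2 changes of 3.13 to 3.82, and COL1A1 and ANKRD1 at −3.07 and −2.72.

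The largest rise among the genes that could be named belonged to CHAC1, an enzyme that degrades glutathione, with the pseudocount of 1 used here. With 0.1 it belonged to PAPPA2 (5.43, against 4.84 for CHAC1), and with 5 to DDIT4 and ASNS (2.93 and 2.90, against 2.31 for CHAC1). CHAC1 measured 23.1, 19.7 and 27.8 TPM in luteolin libraries 1 to 3, against 0.711, 0.757 and 0.692 TPM in DMSO libraries 1 to 3, a log2 fold change of 3.82 ± 0.12 (adjusted p = 5.26e-10). ASNS, which makes asparagine from aspartate and glutamine, stood at 178, 155 and 192 TPM with luteolin, against 18, 20.6 and 18.7 TPM with DMSO (3.13 ± 0.08, adjusted p = 7.75e-11). The mean was 9.16 times as high, and the groups lay far apart with little spread inside either. DDIT4, an inhibitor of mTORC1, had 112, 86.9 and 141 TPM with luteolin and 11.3, 9.95 and 9.63 TPM with DMSO (3.32 ± 0.14, adjusted p = 4.22e-09). Luteolin library 2 was the lowest of the treated libraries for CHAC1, ASNS and DDIT4, and still above every DMSO library.

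NUPR1, a small stress-induced chromatin protein, reached 28.3, 26.7 and 31.7 TPM with luteolin, against 0.919, 1.39 and 1.50 TPM with DMSO (3.73 ± 0.21). GDF15, a secreted stress cytokine, reached 28.2, 19.3 and 33.5 TPM, against 0.890, 0.887 and 1.58 TPM (3.70 ± 0.20). SESN2, a leucine sensor that restrains mTORC1, reached 40.2, 35.7 and 41.4 TPM, against 4.43, 5.31 and 4.62 TPM (2.79 ± 0.08). For all 3 genes the lowest luteolin library was several times the highest DMSO library. DDIT3, the stress factor also called CHOP, had 91.6, 57.8 and 113 TPM with luteolin and 10.2, 10.4 and 13.7 TPM with DMSO (2.79 ± 0.19). Further genes among the 15 largest rises were PAPPA2, a protease that cleaves IGF-binding proteins (3.17 ± 0.23), NDUFA4L2 (2.58 ± 0.27), TRAPPC6A (2.49 ± 0.24), SLC6A9 (2.39 ± 0.17) and CTH (2.32 ± 0.11), and FOS, ATF3 and NFKBIZ, which are described with their families.

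**Figure D2:**
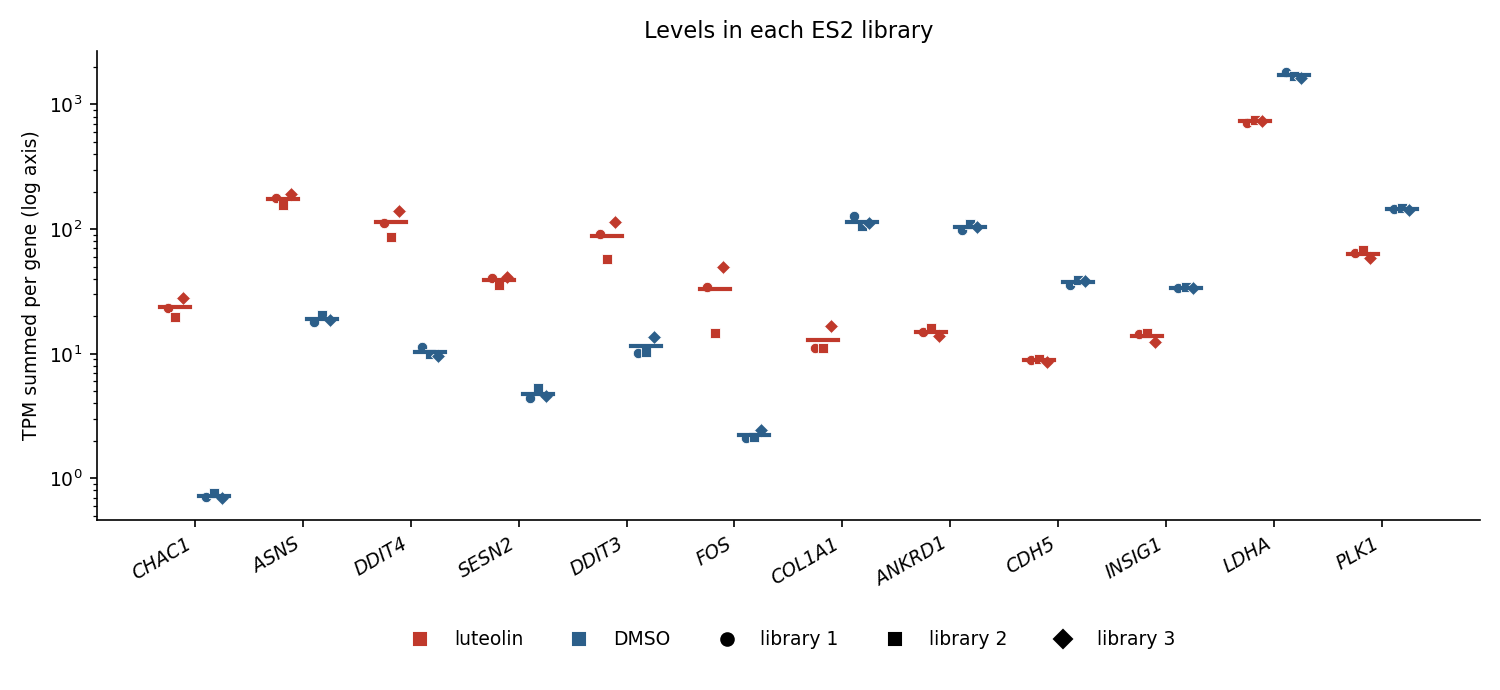
TPM of 12 genes in each of the 6 ES2 libraries (log axis), luteolin in red and DMSO in blue; symbols mark the library number, which pairs nothing, and bars mark the means of 3 libraries. The groups do not overlap for any of the 12 genes, and luteolin library 2 (squares) is the lowest treated library for FOS, DDIT3 and DDIT4.

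The factors and targets of the ATF4 pathway moved largely upward. Of the 29 genes on this list, 28 were tested and 1 was below the filter of 1 TPM in 3 of the 12 ES2 libraries. Luteolin raised 24 of the 28 and lowered 1, with a median log2 change of 1.30. ATF4 mRNA itself was at 546, 531 and 561 TPM with luteolin and 302, 252 and 275 TPM with DMSO (0.99 ± 0.07, adjusted p = 4.33e-07). Its partners CEBPB (1.81 ± 0.09) and CEBPG (1.54 ± 0.11) rose as well, as did JDP2 (1.91 ± 0.13), a repressor of the AP-1 family. TRIB3, a pseudokinase that dampens ATF4 and AKT signalling, had 115, 86.9 and 132 TPM with luteolin and 25.6, 24.7 and 24.4 TPM with DMSO (2.09 ± 0.11). VEGFA, the angiogenic growth factor, rose to 124, 109.9 and 126 TPM, against 51.5, 48.8 and 50.5 TPM with DMSO (1.23 ± 0.05). The 1 member that fell was ATF5, a relative of ATF4, with 12.4, 10.9 and 14.1 TPM, against 15.2, 16.6 and 17.3 TPM (−0.37 ± 0.09, adjusted p = 0.00502).

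Enzymes of serine, glycine, one-carbon and asparagine synthesis rose in 13 of 18 cases and fell in 2, with a median of 0.86. PHGDH catalyses the first step from glycolysis into serine, and measured 611, 612 and 615 TPM with luteolin, against 219, 216 and 223 TPM with DMSO (1.48 ± 0.05). PSAT1, the next enzyme, measured 254, 249 and 249 TPM, against 67.6, 72.7 and 67.5 TPM (1.84 ± 0.04). The 3 luteolin values of these enzymes differed by only a few TPM. The mitochondrial folate enzymes MTHFD2 (1.07 ± 0.04) and SHMT2 (0.73 ± 0.04) rose less. CBS and CTH, which carry sulfur from homocysteine to cysteine, rose by 1.91 and 2.32 on the log2 scale. The level of CTH was 15.7, 16.9 and 17.5 TPM with luteolin and 2.35, 2.88 and 2.44 TPM with DMSO. The 2 members that fell were GLUL, glutamine synthetase, with 40.8, 45.0 and 51.3 TPM, against 67.5, 74.3 and 73.2 TPM (−0.64 ± 0.07), and ALDH18A1, an enzyme of proline synthesis (−0.41 ± 0.04).

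Among amino acid transporters, 16 of 17 were tested, 10 rose, 1 fell and the median was 0.73. SLC7A11, which imports cystine, had 15.2, 16.0 and 15.2 TPM with luteolin and 3.07, 3.17 and 3.32 TPM with DMSO (1.98 ± 0.08). SLC7A5, which imports leucine and other large amino acids, had 138, 139 and 151 TPM, against 49.1, 51.9 and 50.9 TPM (1.48 ± 0.04). SLC3A2, the heavy chain both of them need at the membrane, had 315, 273 and 361 TPM, against 101, 103 and 99.1 TPM (1.63 ± 0.08). All 3 chains thus rose, each with no overlap between the groups. SLC1A4 (1.81 ± 0.12), SLC1A5 (1.11 ± 0.06) and SLC38A2 (0.84 ± 0.07), carriers of small neutral amino acids and glutamine, rose too. SLC6A9, the glycine transporter, was barely present with DMSO, at 0.0692, 0.504 and 0.105 TPM, and stood at 6.14, 4.20 and 5.94 TPM with luteolin. SLC36A4, a transporter of proline and tryptophan, fell to 7.57, 7.29 and 9.11 TPM, against 19.5, 18.7 and 17.0 TPM with DMSO (−1.11 ± 0.08).

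Of 20 cytosolic aminoacyl-tRNA synthetases 13 rose, 2 fell and 5 were not called, with a median of 0.44, and without luteolin library 3 the falls numbered 4. GARS1, which loads glycine, had 311, 304 and 319 TPM with luteolin and 122, 126 and 123 TPM with DMSO (1.33 ± 0.03). SARS1, for serine, had 350.1, 334 and 372 TPM, against 144, 149 and 152 TPM (1.24 ± 0.04). MARS1 (1.14 ± 0.05), CARS1 (1.12 ± 0.05), WARS1 (1.06 ± 0.07) and AARS1 (1.0 ± 0.04) rose by log2 changes of 1.0 or more. RARS1 (−0.30 ± 0.04), for arginine, fell. KARS1 (−0.08 ± 0.05, adjusted p = 0.228) and HARS1 (−0.09 ± 0.04, adjusted p = 0.0859) did not pass the threshold, though KARS1 passed without luteolin library 3 (adjusted p = 0.0408).

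As 1 set, these 4 lists held 84 genes, of which 82 were tested. Luteolin raised 60 and lowered 6, and 36 of the rises were at least 2-fold, with a median of 0.84 beside −0.003 over all genes tested. Leaving out 1 library gave 22 to 25 rises and 1 fall on the ATF4 list, and the other scalings gave 24 and 1. The lists were written with earlier results of these data known, so their counts are a description.

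**Figure D3:**
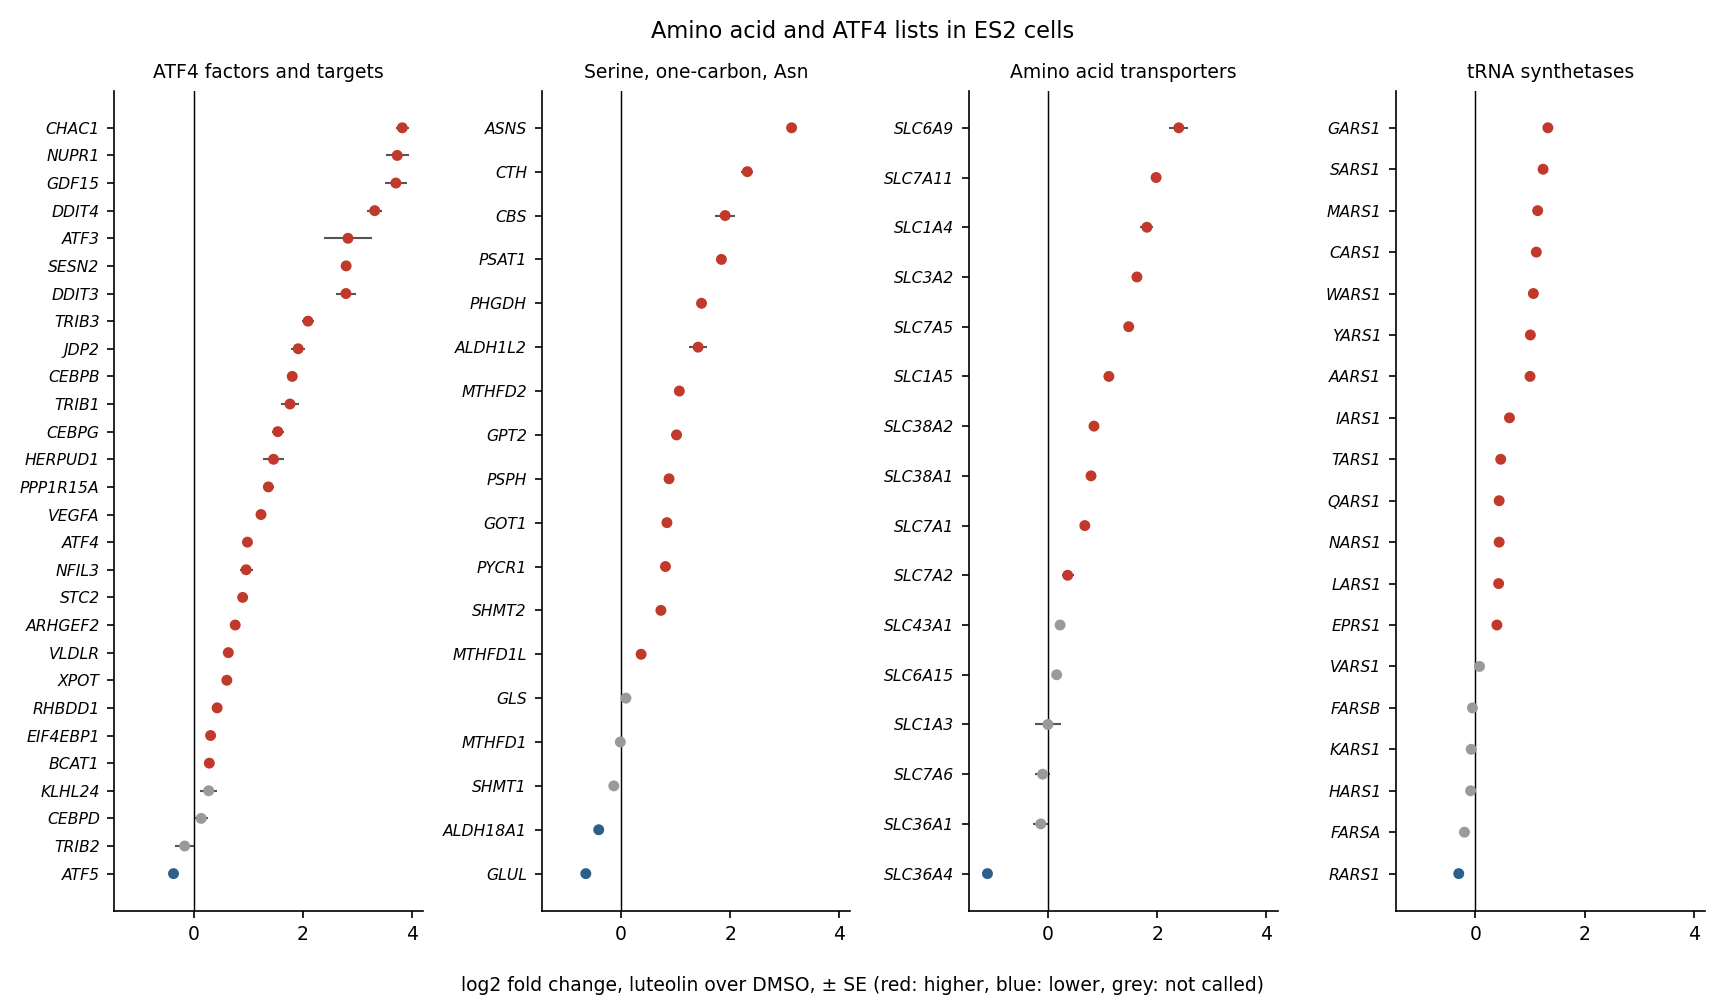
Log2 fold change, luteolin over DMSO, with its SE for tested members of the 4 amino acid and ATF4 lists, 12 ES2 libraries in the fit; red was called higher, blue lower and grey neither. Members run from CHAC1 at 3.82 down to SLC36A4 at −1.11, and the synthetases stay between −0.30 and 1.33.

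The sequences before the gene starts are shown because the genes of these lists moved together and the recognition element of ATF4 with C/EBP proteins is known. RefSeq promoters on GRCh38.p14 were used, from 250 bases before to 50 bases after each start, and the letters TGATGNAAN were searched on both strands. In the runs below, 5′ to 3′ on the strand of the gene, capitals mark the match, which reads as its reverse complement where it lies on the other strand. The 250 bases before the start of ASNS (chr7:97872409-97872658, minus strand) hold 1 match, at base −68 from the start, in the stretch long described as the nutrient-response element of this gene. The window of CHAC1 (chr15:40953221-40953470, plus strand) holds 1 match, at base −210. That of DDIT4 (chr10:72273674-72273923, plus strand) holds none, which says only that these letters are not in this window.
ASNS: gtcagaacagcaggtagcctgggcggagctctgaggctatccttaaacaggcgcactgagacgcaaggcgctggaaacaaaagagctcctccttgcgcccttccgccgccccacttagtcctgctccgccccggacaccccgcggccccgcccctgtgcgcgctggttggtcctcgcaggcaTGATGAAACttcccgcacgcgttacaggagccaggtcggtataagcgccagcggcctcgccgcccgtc
CHAC1: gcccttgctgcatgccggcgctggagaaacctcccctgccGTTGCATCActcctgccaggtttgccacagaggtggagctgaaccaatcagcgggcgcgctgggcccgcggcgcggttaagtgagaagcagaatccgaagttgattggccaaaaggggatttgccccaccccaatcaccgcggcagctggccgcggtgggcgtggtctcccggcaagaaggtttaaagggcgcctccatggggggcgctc
DDIT4: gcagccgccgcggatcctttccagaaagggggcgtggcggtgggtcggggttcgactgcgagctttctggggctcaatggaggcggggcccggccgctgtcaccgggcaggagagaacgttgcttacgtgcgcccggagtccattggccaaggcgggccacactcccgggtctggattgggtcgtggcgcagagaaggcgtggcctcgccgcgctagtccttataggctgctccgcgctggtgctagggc

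Of the 82 tested genes of the 4 lists, 64 had a promoter in the table, and 22 of these held a match (34.4%). Among all 9768 tested genes with a promoter 277 did (2.84%), and among all 27305 genes with one 1215 did (4.45%). The match stood in 7 of 16 synthetases, 6 of 13 transporters, 3 of 12 synthesis enzymes and 6 of 23 genes of the ATF4 list. Of the 22 genes with a match, 21 were called higher, and SLC1A3, a glutamate transporter, was not called (−0.00 ± 0.24). Of the 42 list genes without a match 26 were called higher. Among all tested genes with a promoter, 67 of the 277 with a match were called higher (24.2%), beside 22.4% of all 9768. Among the 15 largest rises 3 of the 13 with a promoter held it, and among the 15 largest falls 0 of 11. A match is a description of letters and not a shown binding site. To let the matches be compared, 8 of the stretches that lie wholly before a start listed for the gene are given with 15 bases on each side. That start is the second listed for GARS1 and CEBPG and the third for SLC1A5. The stretches are AARS1 (chr16:70289671-70289709, minus strand) and GARS1 (chr7:30594829-30594867, plus) for synthetases, SLC1A5 (chr19:46784888-46784926, minus) for transporters, GOT1 (chr10:99430800-99430838, minus) for synthesis, and BCAT1 (chr12:24949126-24949164, minus), CEBPG (chr19:33374056-33374094, plus), HERPUD1 (chr16:56931950-56931988, plus) and ATF3 (chr1:212565201-212565239, plus) for the ATF4 list.
AARS1: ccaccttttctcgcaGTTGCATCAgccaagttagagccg
GARS1: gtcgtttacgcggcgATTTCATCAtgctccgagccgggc
SLC1A5: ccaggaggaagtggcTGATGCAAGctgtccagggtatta
GOT1: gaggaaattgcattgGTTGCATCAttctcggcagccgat
BCAT1: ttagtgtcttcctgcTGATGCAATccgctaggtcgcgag
CEBPG: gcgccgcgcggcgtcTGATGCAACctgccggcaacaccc
HERPUD1: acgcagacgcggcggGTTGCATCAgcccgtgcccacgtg
ATF3: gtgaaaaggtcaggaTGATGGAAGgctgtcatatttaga

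On a mixed list of genes that either restrain mTORC1 or sense nutrients, 9 of 17 tested rose and 1 fell, with a median of 0.23. Over all genes tested 22.6% were higher and 25.8% lower. Not every member that rose restrains mTORC1. DDIT4 and SESN2, described above, stood far beyond the rest of this list. RRAGC, a GTPase that carries mTORC1 to the lysosome, had 24.6, 24.2 and 29.2 TPM with luteolin and 14.9, 13.9 and 14.9 TPM with DMSO (0.79 ± 0.08). TSC2, the brake upstream of mTORC1, had 32.8, 36.3 and 33.8 TPM, against 20.4, 24.2 and 22.9 TPM (0.59 ± 0.12). PRKAA1, a catalytic subunit of AMP-activated kinase, fell (−0.47 ± 0.05).

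More chaperone genes fell than rose, unlike on the ATF4 list. Of 24 tested genes for ER chaperones and ER-associated degradation, 5 rose and 14 fell, with a median of −0.16. By at least 2-fold, 3 rose and 0 fell. HSPA5, the main ER chaperone and a classic sign of ER stress, measured 213, 186 and 240.5 TPM with luteolin, against 248, 257 and 262 TPM with DMSO (−0.27 ± 0.07, adjusted p = 0.00555), a call lost under quantile normalization (adjusted p = 0.169). CALR (−0.64 ± 0.04), PDIA4 (−0.41 ± 0.03) and SDF2L1 (−0.85 ± 0.06) fell as well. The rises included XBP1, the transcription factor of the unfolded protein response, with 108, 97.2 and 120.2 TPM, against 39.9, 42.6 and 40.4 TPM (1.38 ± 0.07), and DNAJB9, an ER co-chaperone (1.07 ± 0.13). HERPUD1, which helps remove misfolded ER proteins and is also on the ATF4 list, rose to 82.3, 60.8 and 133 TPM, against 28.4, 31.6 and 33.5 TPM (1.46 ± 0.20). The count of ER genes that fell ranged from 10 to 14 over the other scalings.

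Heat shock proteins and cytosolic chaperones rose in 0 of 16 tested cases and fell in 13, with a median of −0.59 (limma; at an unadjusted p under 0.05, 0 rose and 14 fell). HSPB1, a small heat shock protein, had 148, 150.4 and 145 TPM with luteolin and 371, 353 and 358 TPM with DMSO (−1.28 ± 0.04). HSP90AA1, the inducible form of HSP90, had 812, 799 and 794 TPM, against 1392, 1493 and 1489.5 TPM (−0.86 ± 0.03). HSPA8, the constitutive HSP70, had 988, 1074 and 962 TPM, against 1695, 1798 and 1811 TPM (−0.81 ± 0.04). The values within each group lay close together for all 3.

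Early-response genes, which growth factors and stress induce within minutes, were higher with luteolin and uneven among its libraries. On the list of AP-1 subunits and early growth response factors, 15 of 18 genes were tested, 12 rose and 0 fell, with a median of 0.66 (limma; 0 fell at an unadjusted p under 0.05 too). FOS stood at 34.6, 14.7 and 49.4 TPM with luteolin, against 2.11, 2.13 and 2.45 TPM with DMSO (3.24 ± 0.32). ATF3, a stress factor, stood at 17.6, 5.78 and 31.5 TPM, against 1.84, 0.746 and 1.31 TPM (2.83 ± 0.44). EGR1, a zinc finger factor, stood at 164, 49.9 and 243 TPM, against 42.4, 43.0 and 36.8 TPM (1.61 ± 0.40, adjusted p = 0.00551). Luteolin library 2 was the lowest of the treated libraries for each of them, and for EGR1 it lay only just above the DMSO libraries. FOSB (2.08 ± 0.43) and JUNB (2.04 ± 0.20) rose with the same order of libraries, whereas JUN was even across them, at 194, 192 and 202 TPM with luteolin and 146, 143 and 132 TPM with DMSO (0.48 ± 0.04). Without luteolin library 2, 14 members were called higher, and without library 3, 11 were higher and 1 lower.

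Feedback regulators of MAP kinases rose in 8 of 17 tested cases and fell in 3, beside 22.6% higher and 25.8% lower over all genes tested. DUSP1, a phosphatase of p38 and JNK, had 302, 233 and 336 TPM with luteolin and 138, 139.7 and 136 TPM with DMSO (1.05 ± 0.10). DUSP6, which acts on ERK, had 149.7, 108 and 165 TPM, against 57.2, 60.5 and 53.3 TPM (1.27 ± 0.12), and the less abundant DUSP10 rose as well (1.91 ± 0.21). SPRY1 (−0.67 ± 0.18) and ETV4 (−0.55 ± 0.09), a factor induced by ERK, fell.

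Inflammatory cytokines and chemokines formed another group that moved upward: of 20 genes, 14 were tested, 12 rose and 0 fell, with a median of 0.94 (limma; 0 fell at an unadjusted p under 0.05 too). CXCL8, a neutrophil chemokine, was abundant in both groups, with 824, 598 and 825 TPM with luteolin and 316, 326 and 333 TPM with DMSO (1.19 ± 0.10). IL6 had 9.96, 4.67 and 13.1 TPM, against 2.34, 3.02 and 2.52 TPM (1.40 ± 0.32), and PTGS2, the inducible cyclooxygenase, had 18.5, 12.5 and 23.8 TPM, against 5.67, 3.98 and 5.96 TPM (1.61 ± 0.20). IL1B rose to 31.0, 19.5 and 32.9 TPM, against 10.4, 9.63 and 10 TPM (1.35 ± 0.15). Luteolin library 2 was again the lowest treated library for all 4. Among NF-kB subunits and feedback genes, 9 of 16 rose and 1 fell, with a median of 0.54. NFKBIZ, a nuclear co-factor of NF-kB, rose most, to 29.1, 16.3 and 31.6 TPM, against 3.67, 4.53 and 2.64 TPM (2.50 ± 0.26). NFKBIA, the inhibitor IkB-alpha, rose (1.07 ± 0.16), and TNFAIP2 fell (−0.87 ± 0.11).

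All 40 genes of the list for G2/M and mitosis were tested and all 40 were called lower, with a median of −0.54, beside 25.8% lower over all genes tested. Each of the other scalings called all 40 lower too, and leaving out 1 library left 39 or 40. PLK1, the polo-like kinase of mitotic entry, measured 63.8, 68.5 and 58.8 TPM with luteolin, against 144, 147 and 141 TPM with DMSO (−1.17 ± 0.05). KIF20A, a kinesin of cytokinesis, measured 15.1, 14.3 and 16.0 TPM, against 42.7, 37.4 and 39.0 TPM (−1.34 ± 0.06). ANLN, the actin scaffold of the cleavage furrow, measured 90.7, 93.1 and 89.3 TPM, against 183, 195 and 195 TPM (−1.06 ± 0.04). CCNB1, the mitotic cyclin, had 165, 197 and 159 TPM with luteolin and 311, 327 and 314 TPM with DMSO (−0.87 ± 0.06). The groups did not overlap for any of these. CDK1, its kinase partner, fell little (−0.27 ± 0.04), and AURKA (−0.97 ± 0.04) and MKI67 (−0.89 ± 0.08), the proliferation marker Ki-67, fell more.

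The promoters of G2/M genes are known for a short element, TTTGAA, bound by repressor complexes outside mitosis. Of 34 list members with a promoter 25 held TTTGAA on either strand (73.5%), against 13.8% of the tested genes and 18.2% of all genes with a promoter. The variant TTCGAA stood in 4 of 34 (11.8%), against 2.32% of the tested genes. How many of all genes with these letters were called lower was not counted, so the matches are a description. PLK1 and CDK1 were picked among the members that hold TTTGAA. For PLK1 (chr16:23678845-23678880, plus strand) and CDK1 (chr10:60778394-60778429, plus strand, the second start listed for the gene) the letters and 15 bases on each side are shown, with the match in capitals. The stretch of CDK1 is not its only match. It lies at base −69 from the second start, with further matches at −13 and 10 from that start and at −161 from the first start.
PLK1: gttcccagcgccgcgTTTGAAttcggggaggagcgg
CDK1: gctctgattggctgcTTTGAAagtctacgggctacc

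Of 45 tested genes of G1/S and DNA replication, 4 rose, 22 fell and 19 were not called, with a median of −0.18, beside 22.6% higher and 25.8% lower over all genes tested. Without luteolin library 2, 8 rose. POLA2, a subunit of the polymerase that starts new strands, fell most (−0.72 ± 0.08), followed by UHRF1 (−0.67 ± 0.04), which maintains DNA methylation, and GINS2 (−0.62 ± 0.06), part of the replicative helicase. CDT1, which licenses origins, was among the 4 rises, with 46.7, 43.7 and 55.0 TPM with luteolin and 39.0, 35.0 and 38.7 TPM with DMSO (0.35 ± 0.08). CCNE1, the cyclin of S-phase entry, was not called (0.19 ± 0.14, adjusted p = 0.276).

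Targets of p53 rose in 10 of 30 tested cases and fell in 3, beside 22.6% higher and 25.8% lower over all genes tested. The members that rose most, GDF15 and SESN2, are also on the ATF4 list. CDKN1A, the CDK inhibitor p21, measured 12.3, 7.55 and 13.5 TPM with luteolin, against 3.29, 3.75 and 3.46 TPM with DMSO (1.39 ± 0.16). PMAIP1, the death-promoting protein NOXA, measured 100.1, 77.5 and 104 TPM, against 27.8, 31.5 and 29.6 TPM (1.62 ± 0.09), and GADD45A, a stress sensor, 227, 184 and 294 TPM, against 95.4, 94.3 and 90.7 TPM (1.29 ± 0.12). MDM2, the ubiquitin ligase of p53 and one of its direct targets, was not called, at 14.8, 16.9 and 13.8 TPM with luteolin and 17.3, 19.5 and 17.2 TPM with DMSO (−0.23 ± 0.17, adjusted p = 0.279). BAX (−0.27 ± 0.06), PHLDA3 (−0.33 ± 0.08) and PPM1D (−0.29 ± 0.11) fell. The call of PHLDA3 was lost in the fit of 24 libraries (adjusted p = 0.0621), and that of PPM1D when any library other than DMSO library 3 was left out (adjusted p = 0.0515 to 0.188). Among other CDK inhibitors, CDKN2B rose (1.15 ± 0.13) and CDKN2C fell (−0.79 ± 0.09).

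Genes of glycolysis and of the hypoxia response fell nearly throughout: 27 of 33 tested genes were called lower and 3 higher, with a median of −0.55. LDHA, which turns pyruvate into lactate, had 713, 755 and 732 TPM with luteolin and 1819, 1680.0 and 1626 TPM with DMSO (−1.22 ± 0.04). SLC2A1, the glucose transporter GLUT1, had 49.7, 61.1 and 58.2 TPM, against 130.4, 128 and 125 TPM (−1.17 ± 0.09). PGK1 had 420.4, 422 and 402 TPM, against 775, 774 and 777 TPM (−0.90 ± 0.03), with DMSO values within a few TPM of each other. HK2 (−0.55 ± 0.04), ENO1 (−0.63 ± 0.02) and GAPDH (−0.41 ± 0.03) also fell, as did CA9, the carbonic anhydrase induced by hypoxia (−1.29 ± 0.30), and LOX, which cross-links collagen (−1.22 ± 0.08). The 3 rises were VEGFA, given above, SLC2A3, the transporter GLUT3 (0.69 ± 0.25), and PFKL (0.16 ± 0.05). The change of SLC2A3 was 0.35 without luteolin library 3 (adjusted p = 0.147) and 1.07 without luteolin library 2, and its call was also lost without luteolin library 1 or any DMSO library (adjusted p = 0.0678 to 0.0983). The list as a whole took a mean of 1.27% of all TPM with luteolin and 1.91% with DMSO.

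Cholesterol genes rose in 0 of 24 tested cases and fell in 18, with a median of −0.41 (limma; at an unadjusted p under 0.05, 0 rose and 18 fell). INSIG1, the sterol sensor's anchor in the ER, measured 14.4, 14.6 and 12.4 TPM with luteolin, against 33.9, 34.1 and 33.7 TPM with DMSO (−1.24 ± 0.06). STARD4, a carrier of cholesterol, measured 1.03, 1.52 and 1.96 TPM, against 6.63, 8.58 and 7.63 TPM (−1.79 ± 0.19). Both are known targets of the factor SREBP2, and neither had overlapping groups. Fatty acid genes fell in 12 of 16 tested cases and rose in 1. SCD, which makes monounsaturated fatty acids, had 48.9, 46.6 and 49.0 TPM, against 96.5, 103 and 97.6 TPM (−1.02 ± 0.05), and ACSS2, which activates acetate, was the rise (0.67 ± 0.11).

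**Figure D4:**
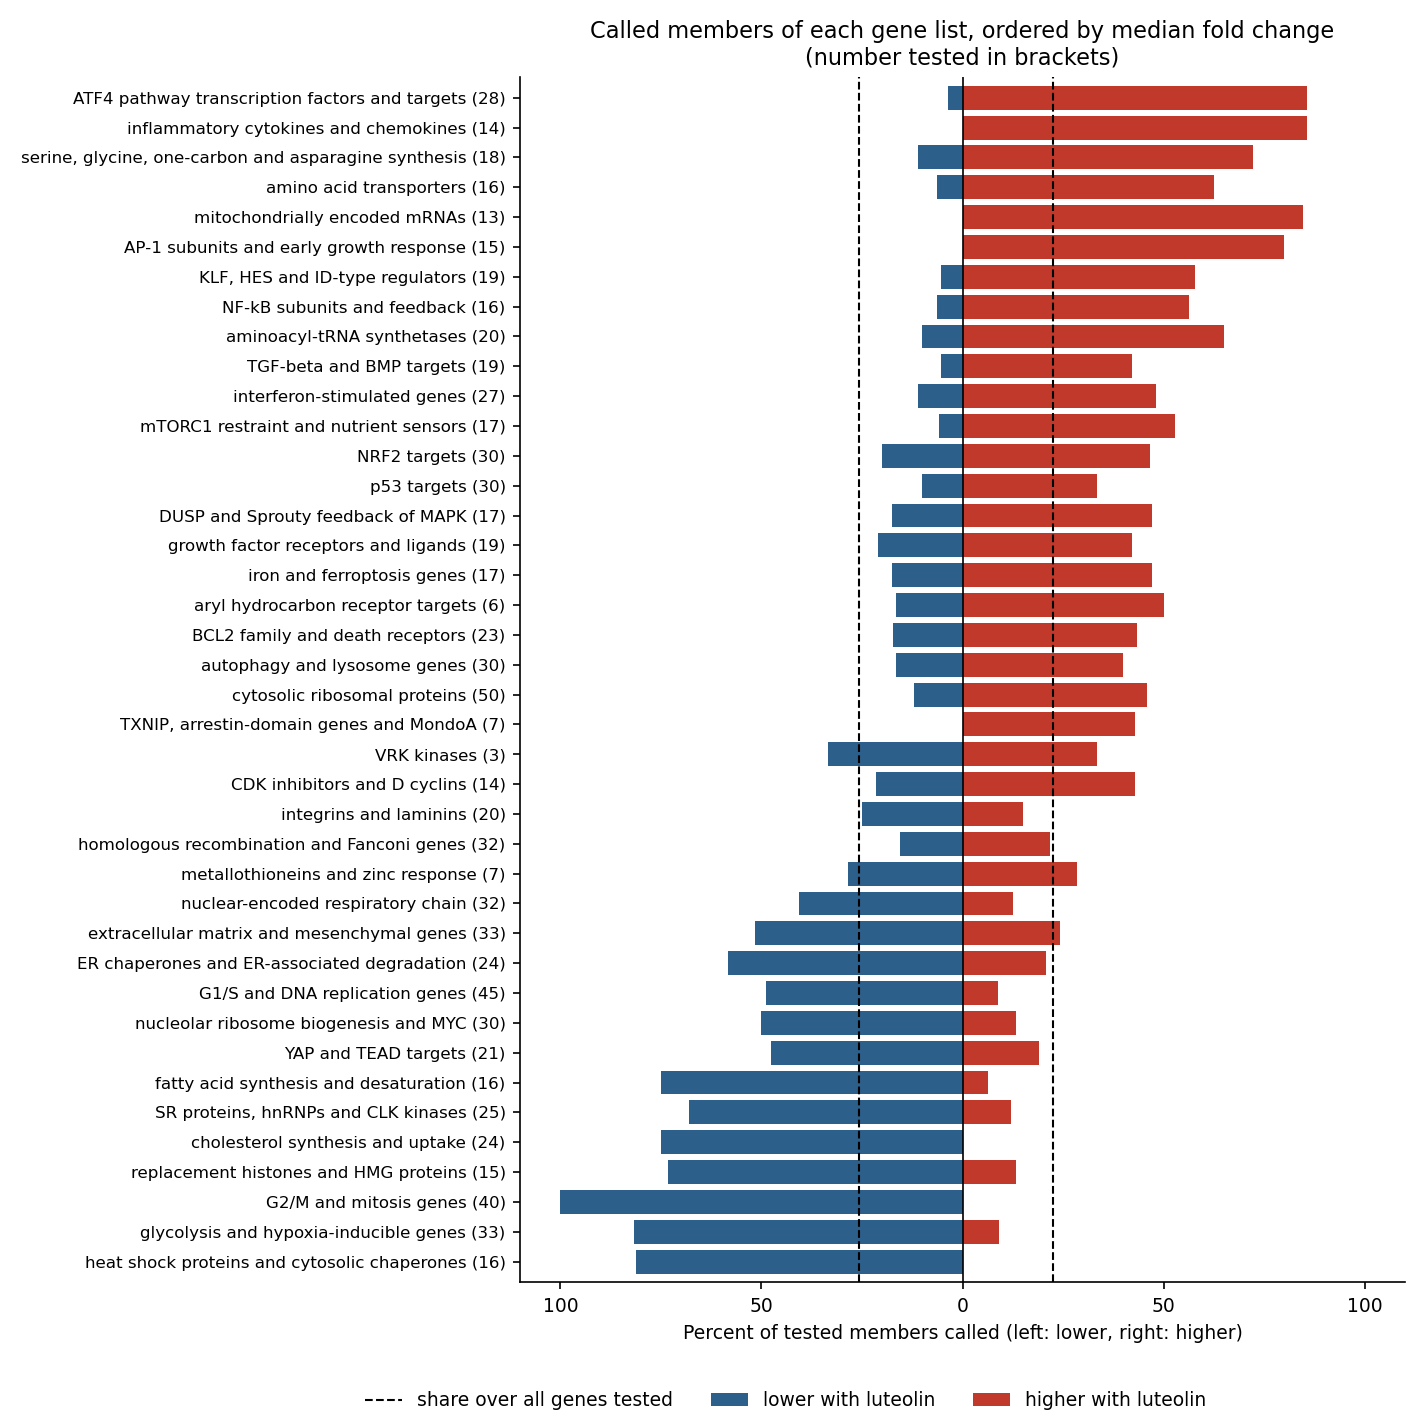
For each of the 40 gene lists, the percent of tested members called lower (blue, to the left) and higher (red, to the right) with luteolin in ES2 cells, with the number tested in brackets; dashed lines mark the 25.8% lower and 22.6% higher over all genes tested. Lists run from the ATF4 list with a median log2 change of 1.30 at the top to heat shock proteins with −0.59 at the bottom.

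The 15 largest falls belonged to genes of several kinds. COL1A1, a chain of type I collagen, measured 11.2, 11.2 and 16.6 TPM with luteolin, against 128, 106 and 112 TPM with DMSO (−3.07 ± 0.13, adjusted p = 5.47e-09). ANKRD1, a target of the YAP and TEAD factors, measured 14.9, 16.2 and 13.9 TPM, against 98.7, 111 and 105 TPM (−2.72 ± 0.06, adjusted p = 3.55e-11). TGFBI, a matrix protein, measured 14.3, 16.1 and 18.9 TPM, against 63.6, 63.0 and 64.3 TPM (−1.90 ± 0.07). In each case the highest luteolin library was well below the lowest DMSO library. Others of the 15 largest falls were KIAA1755 (−2.36 ± 0.11), OLFML3 (−2.10 ± 0.10), CAVIN3, a coat protein of caveolae (−2.06 ± 0.07), the growth factor FGF1 (−1.87 ± 0.18), the decoy receptor TNFRSF6B (−1.86 ± 0.05), IGFBP3, which binds insulin-like growth factors (−1.74 ± 0.13), NMNAT2, an enzyme of NAD synthesis (−1.95 ± 0.12), HPDL (−1.90 ± 0.07) and KRT80, a keratin (−1.78 ± 0.06), besides genes described with their lists. A larger fall was that of HBBP1, a pseudogene of the globin cluster (−3.39 ± 0.15), which the naming rule leaves out and whose reads can be shared with its copies.

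Over the whole list of matrix and mesenchymal genes, 8 of 33 tested members rose and 17 fell, with a median of −0.16. The share that rose was near the 22.6% higher over all genes tested, of which 25.8% were lower. SPARC, a matrix glycoprotein, fell to 106, 109.9 and 104 TPM, against 216, 194 and 216 TPM with DMSO (−0.96 ± 0.04), and COL12A1 fell (−1.21 ± 0.07). TIMP3, an inhibitor of metalloproteinases, fell (−1.32 ± 0.06). MMP1, the interstitial collagenase and one of the most abundant mRNAs here, fell to 3301, 3217 and 3337 TPM, against 4968, 4811 and 4751 TPM with DMSO (−0.56 ± 0.03). MMP3 (1.11 ± 0.11) and the transcription factors SNAI2 (1.26 ± 0.10) and SNAI1 (1.84 ± 0.33), known from epithelial-mesenchymal transition, rose, and CDH2, N-cadherin, rose little (0.18 ± 0.04), a call lost in the fit of 24 libraries (adjusted p = 0.124). VIM, the intermediate filament of mesenchymal cells, stayed among the most abundant mRNAs, at 3418, 3617 and 3392 TPM with luteolin and 3766, 3692 and 3747 TPM with DMSO (−0.10 ± 0.03), and its call was lost after median-of-ratios scaling (adjusted p = 0.0532) and without mitochondrially encoded mRNAs (adjusted p = 0.156).

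Targets of YAP and TEAD rose in 4 of 21 cases and fell in 10, with a median of −0.22, beside 22.6% higher and 25.8% lower over all genes tested. CCN2, a secreted matricellular protein and a standard readout of YAP, measured 508, 372 and 588 TPM with luteolin, against 790.2, 795 and 775 TPM with DMSO (−0.71 ± 0.12). AXL, a receptor tyrosine kinase, fell (−0.47 ± 0.04). GADD45B (1.48 ± 0.18) and F3, tissue factor (0.60 ± 0.13), were higher, and both had their lowest treated value in luteolin library 2. TGF-beta and BMP targets rose in 8 of 19 tested cases and fell in 1: ID1 rose (1.33 ± 0.11), and TGFB2, a ligand, fell (−0.70 ± 0.13).

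CDH5, the cadherin of endothelial junctions, was present in ES2 cells and fell, with 8.91, 9.15 and 8.52 TPM with luteolin and 35.7, 39.3 and 38.5 TPM with DMSO (−1.98 ± 0.05). ROBO4, another gene of endothelium, fell to 3.15, 4.66 and 5.77 TPM, against 9.97, 16.0 and 14.0 TPM (−1.38 ± 0.18), and so did ECSCR (−1.88 ± 0.08). Of 8 endothelial markers 3 stayed below 1 TPM in all 6 libraries, among them VWF and TEK, and PECAM1 reached 1 TPM in luteolin library 3 only, at 0.762, 0.435 and 2.16 TPM with luteolin and 0.337, 0.482 and 0.312 TPM with DMSO. The list summed to 14.5 to 17.8 TPM with luteolin and 47.9 to 57.1 TPM with DMSO, mostly CDH5. Of 8 fibroblast markers LUM was listed at 0 in every library and COL3A1 and PDGFRB stayed below 1 TPM. The fibroblast list summed to 17.9 to 23.0 TPM with luteolin and 114 to 134 TPM with DMSO, nearly all of it COL1A1. Of its 4 tested members 2 were called lower, COL1A1 and FAP (−0.41 ± 0.14), and 1 higher. FAP lost its call in the fit of 6 libraries (adjusted p = 0.0814). THY1 was the rise, at 1.34, 1.11 and 1.31 TPM with luteolin and 0.169, 0.463 and 0.360 TPM with DMSO (0.77 ± 0.22). The part of other cell types in these falls was not tested.

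mRNAs made by the mitochondrial genome took more of the library with luteolin. Their share of all TPM was 7.23%, 8.69% and 7.43% in luteolin libraries, against 5.15%, 4.03% and 4.53% in DMSO libraries, or 7.78% ± 0.79 with luteolin and 4.57% ± 0.56 with DMSO (SD, n = 3 each). An exact two-sided permutation test gave p = 0.1, the smallest that 3 against 3 allows. Of the 13 mRNAs 11 were called higher and 0 lower, with a median of 0.72 (limma; at an unadjusted p under 0.05, 12 higher and 0 lower). MT-ND4, a subunit of complex I, had 2775, 4081 and 2793 TPM with luteolin and 1484, 983 and 1221 TPM with DMSO (1.38 ± 0.15), and MT-CO1, a subunit of complex IV, had 5970.4, 7439.7 and 6046 TPM, against 3459, 2374 and 2855 TPM (1.17 ± 0.12). MT-ATP6 (0.38 ± 0.17, adjusted p = 0.0731) and MT-ATP8 (0.31 ± 0.24, adjusted p = 0.315) did not pass. Without DMSO library 1 both passed (adjusted p = 0.0122 for MT-ATP6 and 0.04997 for MT-ATP8), and MT-ATP6 also without luteolin library 1 (adjusted p = 0.0496). Since TPM add to 1000000 in every library, a larger mitochondrial share lowers every other value. Rescaled without these 13 mRNAs, 3345 genes were called higher and 2765 lower. Respiratory chain genes of the nucleus rose in 4 of 32 cases and fell in 13, with a median of −0.11, beside 22.6% higher and 25.8% lower over all genes tested. The rises numbered 2 without luteolin library 1 and 1 when any 1 DMSO library was left out, and the other scalings gave 3 to 7 rises and 7 to 14 falls.

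Of 50 ribosomal protein genes 23 were called higher and 6 lower, with a median of 0.07. Other scalings gave 15 to 32 higher and 1 to 9 lower, so the balance of this list depends on the scaling, and without DMSO library 3 the falls numbered 3. The list took 18.8% ± 0.14 of TPM with luteolin and 17.6% ± 0.06 with DMSO (SD, n = 3 each, exact permutation p = 0.1, the smallest possible), with no overlap. RPS27 (0.46 ± 0.05, reversed to −0.09 under quantile normalization) and RPS18 (0.35 ± 0.02) were among the largest rises in TPM. The call of RPS18 was lost under quantile normalization too, at 0.02 (adjusted p = 0.776). RPS6 had 3546, 3414 and 3440.2 TPM with luteolin and 2676, 2708 and 2665 TPM with DMSO (0.37 ± 0.03). Genes of ribosome assembly in the nucleolus fell in 15 of 30 cases and rose in 4, with 10 to 19 lower and 4 to 7 higher under the other scalings. NCL, nucleolin, fell (−0.51 ± 0.05), while MYC, which drives these genes, had 163, 136 and 179.6 TPM with luteolin and 89.1, 88.2 and 90.8 TPM with DMSO (0.82 ± 0.07).

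RNA-binding splicing factors fell in 17 of 25 cases and rose in 3, with a median of −0.34. SRSF1, an SR protein, measured 145, 153 and 156 TPM with luteolin, against 287, 316 and 310.2 TPM with DMSO (−1.01 ± 0.05), and HNRNPA2B1 measured 908, 919 and 919 TPM, against 1709.8, 1735 and 1726 TPM (−0.91 ± 0.03). The 3 rises were CLK1 (0.79 ± 0.13), CLK4 (0.78 ± 0.17) and CLK3 (0.42 ± 0.08), kinases that phosphorylate SR proteins. Transcripts annotated as retained introns took 4.53% ± 0.16 of TPM with luteolin and 4.33% ± 0.03 with DMSO (SD, n = 3 each, exact permutation p = 0.1, the smallest possible). Replacement histones and HMG proteins, the architectural proteins of chromatin, fell in 11 of 15 cases and rose in 2. HMGB1 fell to 679, 713 and 682 TPM, against 1212, 1268 and 1243 TPM with DMSO (−0.84 ± 0.03).

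VRK1, the kinase that the siRNAs of the series target, was not called, at 62.8, 53.8 and 67.9 TPM with luteolin and 57.3, 60.1 and 63.6 TPM with DMSO. Its relatives moved apart: VRK3 was higher, at 18, 17.5 and 18.1 TPM, against 12.8, 12.9 and 13.5 TPM (0.42 ± 0.07), and VRK2 was lower, at 16.2, 15.6 and 17.1 TPM, against 20.2, 22.7 and 21.6 TPM (−0.38 ± 0.06).

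The effect of luteolin in ES2 was then set against that in A2780 by the difference of the log2 changes in a fit of all 24 libraries, where 7229 of 14328 genes differed (50.5%), 2104 more positive and 5125 more negative in ES2. After median-of-ratios scaling these counts were 3594 and 3464, and after quantile normalization 3621 and 3266. The median difference, ES2 minus A2780, was −0.20, and single values are to be read against it. ASNS separated the lines most clearly among the genes examined. In A2780 it measured 225 ± 4.56 TPM with luteolin and 239.5 ± 6.60 TPM with DMSO (SD, n = 3 each), and was not called there (−0.09 ± 0.06, adjusted p = 0.236). The ES2 luteolin level of 175 ± 18.8 TPM came near the A2780 levels, and the ES2 DMSO level was 19.1 ± 1.35 TPM. The difference between the effects was 3.22 ± 0.09 (adjusted p = 2.7e-15).

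CHAC1 (2.82 ± 0.13, adjusted p = 1.68e-12), NUPR1 (2.57 ± 0.24, adjusted p = 5.86e-08) and DDIT4 (1.89 ± 0.16, adjusted p = 9.85e-09) also rose more in ES2 than in A2780 on the log2 scale, though not in TPM. A2780 levels here and in the next paragraph are means ± SD (n = 3 each). In A2780 CHAC1 measured 127 ± 7.97 TPM with luteolin and 62.9 ± 2.27 TPM with DMSO, and DDIT4 measured 385 ± 26.9 TPM with luteolin and 143 ± 2.48 TPM with DMSO. NUPR1 measured 155 ± 23.1 TPM with luteolin and 68.4 ± 3.37 TPM with DMSO there. All 3 thus rose in A2780 from higher DMSO levels than those of ES2. With a pseudocount of 0.1 the differences of CHAC1 and NUPR1 were 3.82 and 3.26, and with 5 they were 1.35 and 1.32. FOS rose in both lines, and the difference was not called (0.68 ± 0.38, adjusted p = 0.15), with an adjusted p of 0.0463 after median-of-ratios scaling. CDKN1A rose more in A2780, with 883 ± 93.4 TPM with luteolin and 49.5 ± 2.18 TPM with DMSO (4.13 ± 0.12), and the difference was −2.74 ± 0.18 (adjusted p = 2.33e-10). GDF15 measured 1032 ± 104 TPM with luteolin and 45.4 ± 4.29 TPM with DMSO in A2780. Its difference of −0.77 ± 0.22 (adjusted p = 0.0056) rests on the pseudocount: with 0.1 in place of 1 it was −0.02 (adjusted p = 0.958) and with 5 it was −2.001.

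COL1A1 fell more in ES2 (−2.60 ± 0.19, adjusted p = 1.25e-09), and in A2780 it measured only 2.01 ± 0.509 TPM with luteolin and 3.15 ± 0.424 TPM with DMSO. From that DMSO level a fall as large as in ES2 could not have been measured on the log2(TPM + 1) scale. With a pseudocount of 0.1 the difference of COL1A1 was −2.52. ANKRD1 also fell more in ES2 (−2.42 ± 0.09, adjusted p = 5.12e-14), at 8.13 ± 0.426 TPM with luteolin and 10.2 ± 0.768 TPM with DMSO in A2780. KIAA1755 and CAVIN3 were below 0.1 TPM on average in both A2780 groups, so a fall as large as in ES2 could not have been measured there. VRK1 fell in A2780 (−0.43 ± 0.11, adjusted p = 0.00261) and its difference was 0.45 ± 0.16 (adjusted p = 0.0246).

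**Figure D5:**
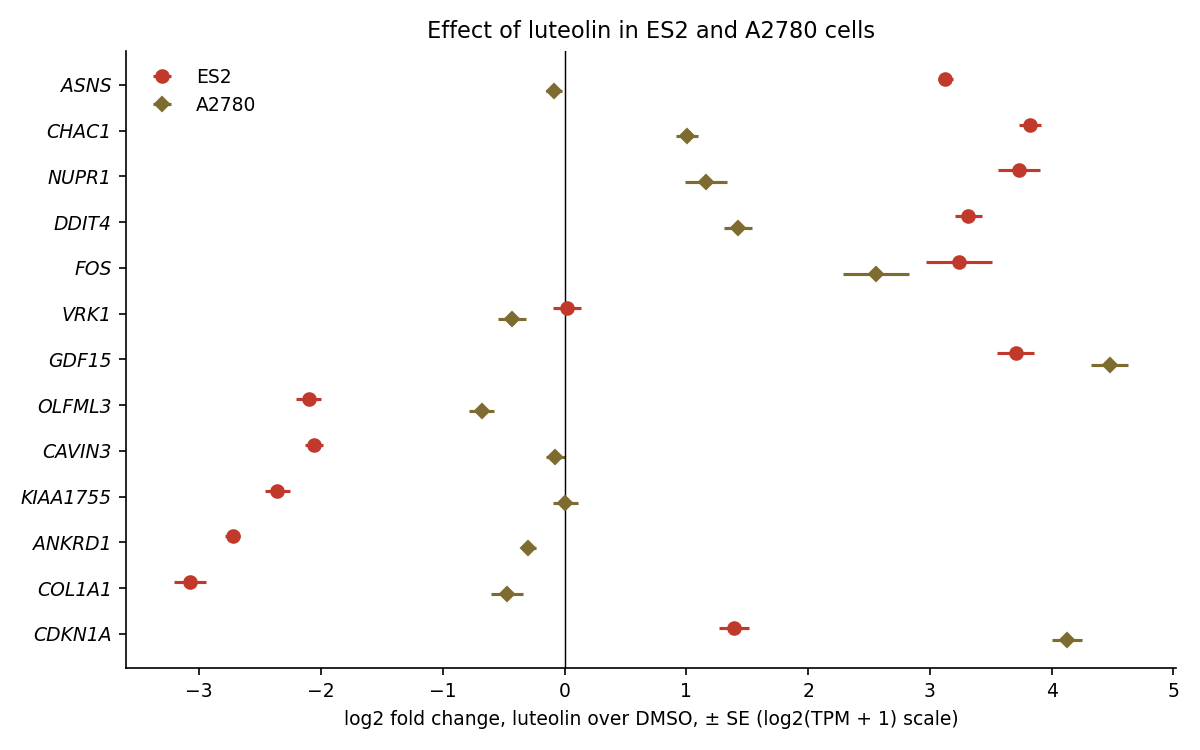
Log2 fold change, luteolin over DMSO, with its SE for 13 genes in ES2 (red circles) and A2780 (brown diamonds), from a fit of all 24 libraries. ASNS lies at 3.13 in ES2 and at −0.09 in A2780, and CDKN1A at 1.39 in ES2 and 4.13 in A2780.

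Over all 8 groups, ASNS averaged 175 ± 18.8 TPM in ES2 with luteolin, 25.6 ± 1.11 TPM with siVRK1, 19.1 ± 1.35 TPM with DMSO and 13.8 ± 0.501 TPM with the control siRNA. In A2780 it averaged 225 ± 4.56 TPM with luteolin, 191 ± 11.8 TPM with siVRK1, 239.5 ± 6.60 TPM with DMSO and 216 ± 2.05 TPM with the control siRNA (SD, n = 3 each). The 4 A2780 groups and ES2 with luteolin all lay above the other 3 ES2 groups. A pair of the ES2 siVRK1 columns share a name, so that they are known by group only. ANKRD1 in ES2 averaged 15 ± 1.14 TPM with luteolin, 143 ± 6.45 TPM with siVRK1, 105 ± 6.10 TPM with DMSO and 673 ± 6.42 TPM with the control siRNA, so its level differed between the 2 kinds of control.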

How the data were processed

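A column kit was used for RNA extraction and a company did the sequencing, per the labels' protocols. For processing, kallisto, FastQC and hg19 are named without versions in the submitters' processing notes. The authors deposited 1 table of TPM per transcript and library. Its 193845 lines hold 191887 distinct transcripts, and the 1958 repeated lines were identical and used once. TPM were summed per symbol (28907 symbols); 19 transcripts with more than 1 symbol and 9542 without one, 0.514% to 0.605% of TPM in these libraries, were left out. Where genes overlap or share sequence with copies, the division of reads is uncertain.

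Genes with at least 1 TPM in at least 3 of the 12 ES2 libraries were tested with R 4.3.3 and limma 3.58.1 (trend method, log2(TPM + 1), two-sided, Benjamini-Hochberg adjustment over all genes tested, threshold 0.05); the difference between the lines used all 24 libraries. The steps were tested on simulated data. Alternatives were pseudocounts of 0.1 and 5, no filter or one of 5 TPM, quantile normalization, median-of-ratios scaling, fits of 6 or 24 libraries, a robust prior, a replicate block and each library left out; removal of mitochondrially encoded mRNAs was chosen after seeing the data.

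The comparison, the 46 lists (978 genes, 40 lists of pathways and 6 of markers) and the tests were chosen with earlier results of these data known. Named were ASNS, DDIT4 and the VRK kinases; the 15 largest rises and falls among called genes without overlap of the groups, with an established symbol and 5 TPM or more where higher; the 8 largest TPM differences per direction; and up to 3 rises and falls per list. Another 48 named genes, and the marker genes named as low, were chosen after their values were seen. A few members of the lists, 1 synthetase among them, count in their lists but are not reported here by name or drawn. Promoters came from RefSeq GRCh38.p14 and matched 9768 of 12507 genes tested. The files' build is hg19, so no coordinates of genes are given from it.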

Additional observations from a re-analysis of the deposited data

Results flagged for a closer look

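The effect of luteolin differed between ES2 and A2780 for 12 of the 13 genes in which the difference was tested, by the difference of log2 changes, ES2 minus A2780, in a fit of all 24 libraries (adjusted p under 0.05), beside 50.5% of all genes tested. Most of the 13 were chosen as among the largest changes in ES2. More positive in ES2 were ASNS (3.22), CHAC1 (2.82), NUPR1 (2.57), DDIT4 (1.89) and VRK1 (0.45). More negative in ES2 were CDKN1A (−2.74), COL1A1 (−2.60), ANKRD1 (−2.42), KIAA1755 (−2.36), CAVIN3 (−1.98), OLFML3 (−1.42) and GDF15 (−0.77). Of these, KIAA1755, CAVIN3 and OLFML3 were near or below 1 TPM in A2780 with either treatment. For them and for COL1A1, the A2780 DMSO levels were too low to measure a fall as large as in ES2 on the log2(TPM + 1) scale. The difference of GDF15 was −0.02 with a pseudocount of 0.1 and was not called after median-of-ratios scaling (adjusted p = 0.0577). With DMSO, ES2 stood below A2780 for ASNS, CHAC1, NUPR1, DDIT4, GDF15 and CDKN1A and above it for COL1A1, ANKRD1, KIAA1755, OLFML3 and CAVIN3.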

How the results depend on the processing

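Of the 268 named genes, 246 had a value under all 17 alternatives, and 220 of these held their direction and their side of the threshold. The other 22 were not tested under at least 1, and 17 of them held where run. With the direction kept, 24 lost a call under at least 1 alternative, and calls were gained by MT-ATP6, MT-ATP8 and KARS1. Of the 5 genes that reversed, RPS27 lost its call, at −0.0855 under quantile normalization (adjusted p = 0.298). The other 4 were not called with the settings used: VRK1 was at −0.0518 without ES2 luteolin library 3 and −0.0141 without ES2 DMSO library 1, with a highest value of 0.114 without ES2 luteolin library 2; KARS1 was at 0.00847 under quantile normalization; KRT7 was at 0.0894 under quantile normalization and 0.0136 without mitochondrially encoded mRNAs; and SLC1A3 was at 0.0113 with a pseudocount of 5, 0.0399 without mitochondrially encoded mRNAs, and −0.283 to 0.299 when 1 library was left out. The counts of at least 2-fold changes follow the pseudocount: 499 genes higher and 243 lower with 0.1, and 116 higher and 52 lower with 5. Leaving out 1 library gave 2259 to 2929 genes higher and 2820 to 3154 lower. In the difference between the lines, 2104 genes were more positive in ES2 and 5125 more negative; median-of-ratios scaling gave 3594 and 3464, and quantile normalization 3621 and 3266, so the share that was more positive (29.1%) became 50.9% and 52.6%. The other scalings moved the median difference of −0.20 to −0.02 and 0.01. The difference of GDF15 was not called after median-of-ratios scaling (adjusted p = 0.0577). With the replicate number as a block, 2584 genes were higher and 3002 lower; same-numbered libraries did not deviate together (correlations of −0.013, −0.002 and −0.001 for numbers 1, 2 and 3), so the numbers were not taken as pairs. The unknown depth leaves the counting error of genes near 1 TPM unmeasured, and an unstated dose and time limit what the comparison can be set against.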

Other observations

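Counts of called members in this section stand beside 22.6% higher and 25.8% lower over all genes tested. Genes of iron handling and ferroptosis rose in 8 of 17 tested cases and fell in 3. SAT1, which acetylates polyamines, had 102, 75.2 and 106 TPM with luteolin and 19.3, 20.5 and 21.9 TPM with DMSO (2.13 ± 0.11). FTH1, the heavy chain of ferritin, had 2019.9, 1872 and 2089.5 TPM, against 1228, 1196 and 1142 TPM (0.74 ± 0.05), and ACSL4, which loads membranes with polyunsaturated fatty acids, fell (−0.44 ± 0.05). NRF2 targets, the antioxidant genes, rose in 14 of 30 cases and fell in 6, with a median of 0.19: NQO1 rose (0.44 ± 0.04), PRDX1 (−0.65 ± 0.03) and GCLC (−0.38 ± 0.11), which starts glutathione synthesis, fell. The antioxidant letters TGACNNNGC stood in 6 of 21 of their promoters (28.6%), against 19.4% of the tested genes. Flavones are known as ligands of the aryl hydrocarbon receptor. Of 11 genes of this receptor's list 5 were below the filter, CYP1A1 and CYP1B1 among them, 3 rose and 1 fell (2 without luteolin library 3). The 3 rises were AHR itself (0.86 ± 0.20), NQO1, given above, and NFE2L2 (0.20 ± 0.07). NFE2L2 lost its call in the fit of 6 libraries (adjusted p = 0.0553) and without any library other than luteolin library 2 (adjusted p = 0.0534 to 0.113). The letters GCGTG stood in 5 of 6 of the tested promoters of this list, against 58.8% of the tested genes.

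Genes of the interferon response rose in 13 of 27 tested cases and fell in 3. TAP1, the peptide transporter of antigen presentation, had 18.5, 18.1 and 18 TPM with luteolin and 9.57, 10.8 and 10.3 TPM with DMSO (0.77 ± 0.07), and HLA-B had 11.7, 7.37 and 10.2 TPM, against 5.50, 3.70 and 5.46 TPM (0.86 ± 0.17), where reads can be shared with other HLA genes. IFITM2 (−0.67 ± 0.09) and IFI44 (−0.62 ± 0.09) fell. KLF, HES and ID-type regulators rose in 11 of 19 cases and fell in 1, with KLF4 at 1.79 ± 0.18 and JAG1, a Notch ligand, at 1.49 ± 0.09. In the BCL2 family and death receptor list 10 of 23 rose and 4 fell, with BCL2A1 at 0.94 ± 0.08 and BCL2L1 at −0.35 ± 0.05. Autophagy and lysosome genes rose in 12 of 30 cases and fell in 5 (3 without luteolin library 3, DMSO library 2 or DMSO library 3), with the receptor SQSTM1 at 1.03 ± 0.09. Growth factor receptors and ligands rose in 8 of 19 cases and fell in 4 (2 when any 1 DMSO library was left out), with EGFR at 0.27 ± 0.07, a call lost in the fit of 24 libraries (adjusted p = 0.0867). Integrins and laminins rose in 3 of 20 and fell in 5 (3 without DMSO library 2), beside 22.6% and 25.8% over all genes tested. ITGB1 was at 0.52 ± 0.03. Homologous recombination and Fanconi genes rose in 7 of 32 and fell in 5, beside 22.6% higher and 25.8% lower over all genes tested. Of 7 metallothionein and zinc genes 2 rose and 2 fell, near these shares, with MT2A at −0.38 ± 0.07 and the zinc exporter SLC30A1 at 0.83 ± 0.08. Of 7 genes around TXNIP 3 rose and 0 fell (limma; 0 fell at an unadjusted p under 0.05 too), with ARRDC3 at 1.90 ± 0.31. TXNIP itself was 1 of the 3 rises (0.40 ± 0.14), with overlapping groups. Its call was lost in the fit of 6 libraries (adjusted p = 0.0856). The same held when any library other than luteolin library 2 was left out (adjusted p = 0.0563 to 0.142). Of 14 CDK inhibitors and D cyclins 6 rose and 3 fell. Melanocyte markers summed to 15.4 to 16.8 TPM with luteolin and 13.2 to 15.7 TPM with DMSO, mostly TYRP1, and erythroid markers to at most 1.22 TPM with luteolin and 0.477 TPM with DMSO.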
